A study of Mus musculus with 4 samples.

Results

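The keratins and claudins are the 76 genes whose probes carry a numbered keratin (Krt) or claudin (Cldn) name in the scanner files. They comprised 51 keratins and 25 claudins, read by 95 probes, of 22328 genes named on the arrays. The choice used names alone and no measured value. Of the 76 genes, 50 were well above background on at least 1 of the 4 arrays and 32 on all 4. The remaining 26, of which 20 were keratins and 6 claudins, were not well above background on any array.

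Keratins are the intermediate filament proteins of epithelial cells. Each filament pairs a type I with a type II keratin, as KRT18 with KRT8 in simple epithelia, KRT14 with KRT5 in the basal layer of stratified epithelia, and the root sheath and hair keratins in follicles. Claudins are the membrane proteins that form tight junction strands, and they are grouped into those that seal the space between cells and those that open ion- or water-selective channels through it. Hepatocytes carry KRT8 and KRT18 as their only keratin pair, and bile duct cells add KRT7 and KRT19. In fat, mesothelium (simple keratins), the ducts of glands that lie within a depot, and endothelium (Cldn5) are known sources of these transcripts.

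The study compared liver and white adipose tissue (WAT) of mice lacking Pnpla7, a gene for a lysophospholipase of the patatin-like family, with those of wild-type controls. All mice were C57BL/6N and 4 weeks old. The 4 groups were wild-type liver, Pnpla7-/- liver, wild-type WAT and Pnpla7-/- WAT, each with 1 one-colour array holding RNA pooled from 5 animals, 200 ng of it labelled with Cy3. How the knockout was built, which fat depot was taken and which sex was used are not stated in the labels, and their protocol text names only liver as the source of RNA. A pool of 5 animals on 1 array gives no spread between animals, so no test was made, and a difference that came from 1 animal of a pool cannot be told apart from one shared by all 5.

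Between 65.5% and 72.6% of the spots other than controls were well above background on each array, and no spot was saturated. Slide and scan time were shared by all groups. Albumin and the other hepatocyte genes were measured in both livers (15 of 15), but 14 were also measured in both WAT pools. All 14 adipocyte genes were measured in both WAT pools, and 10 in both livers. Levels differed as the tissue labels require. In wild type all 15 hepatocyte genes were at least 2-fold lower in WAT than in liver (median log2 ratio -7.70). The 11 adipocyte genes measured in both wild-type tissues were all at least 2-fold higher in WAT (median 5.09). In labelled knockout these medians were -8.65 and 4.35. The Pnpla7 probe read 3.18 in wild-type and 3.0 in labelled-knockout liver, and -0.44 and -1.43 in wild-type and labelled-knockout WAT. The labels do not say which part of the gene was deleted, so this probe checks no label, and the pools are called "labelled knockout" below. All 15 skeletal muscle genes were at least 2-fold higher in labelled-knockout than in wild-type WAT (median log2 ratio 3.74).

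A level is the log2 of a spot's processed signal after scaling to its array's 75th percentile, so 0 is the brightness of that percentile and each unit is a doubling. Levels are compared for the same probe between arrays and not between genes. Each member probe was printed as 1 spot. The ± after a ratio is the scanner's own error model for the spots used, 2 for a gene read by 1 probe. It covers spot noise and a preset multiplicative error, and not animals. Where probes were averaged, their spot errors were combined as independent, so the ± leaves out disagreement between probes. Where a probe was well above background on only 1 array of a pair, the fold is a bound: the bright level against the higher of the dim probe's own level and the lowest level well above background on the dim array, written "at least".

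The probes behind the largest differences between genotypes are shown by their first 30 of 60 bases, 5′ to 3′, since each gene's value is the brightness of these short stretches alone. All of them belong to the annotated transcript of the gene named. The positions are those of the whole probe on mm9, as the scanner files give them. Exon and UTR annotation on that build was not used here.
Cldn3, base 1200 of the transcript, chr5:135463284-135463342, plus strand: gcaggcaaaccatgaaacgggccatttcat
Krt18, base 1283, chr15:101862341-101862400, plus strand: ggatggcagagtggtgtccgagactaatga
Krt8, base 1037, chr15:101828827-101828886, minus strand: agatctccgagatgaaccgcaacatcaacc
Krt8, base 1722, chr15:101827138-101827197, minus strand: ccatccaaacccaattcagttgtattttct
Cldn7, base 446, chr11:69778772-69778831, plus strand: ttagagccaggcaaatgaaggggcgtgacc
Cldn7, base 1177, chr11:69781255-69781314, plus strand: aaaggcctcctggccactccacctccaaac
Cldn8, base 2234, chr16:88561135-88561194, minus strand: aaagatgttgtccatatgtatttcaactcc
Krt20, base 1811, chr11:99289776-99289835, minus strand: ataagaacacagcacaaggtgattgacatg

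The first comparison is where the genes were seen in wild-type mice. The liver held strong signal of the hepatocyte keratin pair and of the claudins of hepatocyte junctions, and WAT held far less of them. WAT in turn held more of the endothelial claudin Cldn5, of Krt7 and Krt19, and of Cldn15, Cldn22 and Krt79. Of the 34 genes measured in both wild-type tissues, 8 were at least 2-fold higher in WAT and 11 at least 2-fold lower. Over all genes measured in that pair, 18.1% were at least 2-fold higher and 15.5% lower. A further 3 genes had a bound of at least 2-fold higher in WAT and 2 a bound of at least 2-fold lower. Among all genes seen on 1 array of that pair the bounds reached 2-fold for 33.6% and 16.6%.

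Krt18 read 5.29 in wild-type liver and -0.76 in wild-type WAT, a 66.2-fold difference. Its partner Krt8 was 50.4-fold lower in WAT than in liver as the mean of its probes. Krt23, a type I keratin, read 2.49 in wild-type liver and -4.72 in wild-type WAT and was 148-fold lower in WAT. The order was turned for the ductal and mesothelial keratins. Krt19 read -2.39 in wild-type liver and 0.55 in wild-type WAT, 7.68-fold higher in WAT, and Krt7 was 3.49-fold higher there, from -4.56 to -2.76.

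Among the claudins that seal the junction, Cldn3 showed the widest gap, 3.74 in wild-type liver and -5.08 in wild-type WAT, or 452-fold. Cldn1, found in hepatocyte junctions and in many other epithelia, read -1.17 and -5.51, and Cldn14 read -0.95 and -3.57. Cldn2, which forms a cation and water channel, was well above background with both probes in both livers and with neither in either WAT pool, and its bound in wild-type WAT against liver was -5.64 on the log2 scale. Cldn12 read 3.22 in wild-type liver and 1.01 in wild-type WAT. Cldn5, the claudin of endothelium, ran the other way at 0.19 and 3.45, or 9.55-fold higher in WAT.

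The channel-forming Cldn10 and Cldn15 were both seen more strongly in WAT. Cldn15 read -3.74 in wild-type liver and 2.14 in wild-type WAT, 58.8-fold higher in WAT. Cldn10 read -5.30 and -2.10. Cldn22 was not well above background in either liver and read 2.61 in wild-type WAT, a bound of at least 353-fold. Its neighbour on the chromosome, Wwc2, read 1.13 in wild-type liver and 2.61 in wild-type WAT, and whether the Cldn22 probe also reads transcripts of that neighbour was not tested. Krt79, a keratin of the sebaceous duct, read -2.86 and 0.63, and Krt222, a keratin-like gene, read 0.17 and 2.50. The Krt222 values are from its probe at base 1607. Its other probe, at base 2439, was not well above background on any array.

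In labelled-knockout mice the same comparison gave 7 of 36 measured genes at least 2-fold higher in WAT and 11 lower, beside 17.7% and 13.7% of all genes. By bound, 5 genes were at least 2-fold higher and 1 lower, beside 36.1% and 22.2% of all genes seen on 1 array. Krt18 was 20.4-fold and Cldn3 21.4-fold lower in WAT than in liver there, against 66.2-fold and 452-fold in wild type. Krt20 was the one simple keratin to change sides: it was at least 2.58-fold higher in WAT than in liver in wild type, and 4.68-fold lower in WAT in labelled-knockout mice, where the liver probe was bright.

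**Figure D1:**
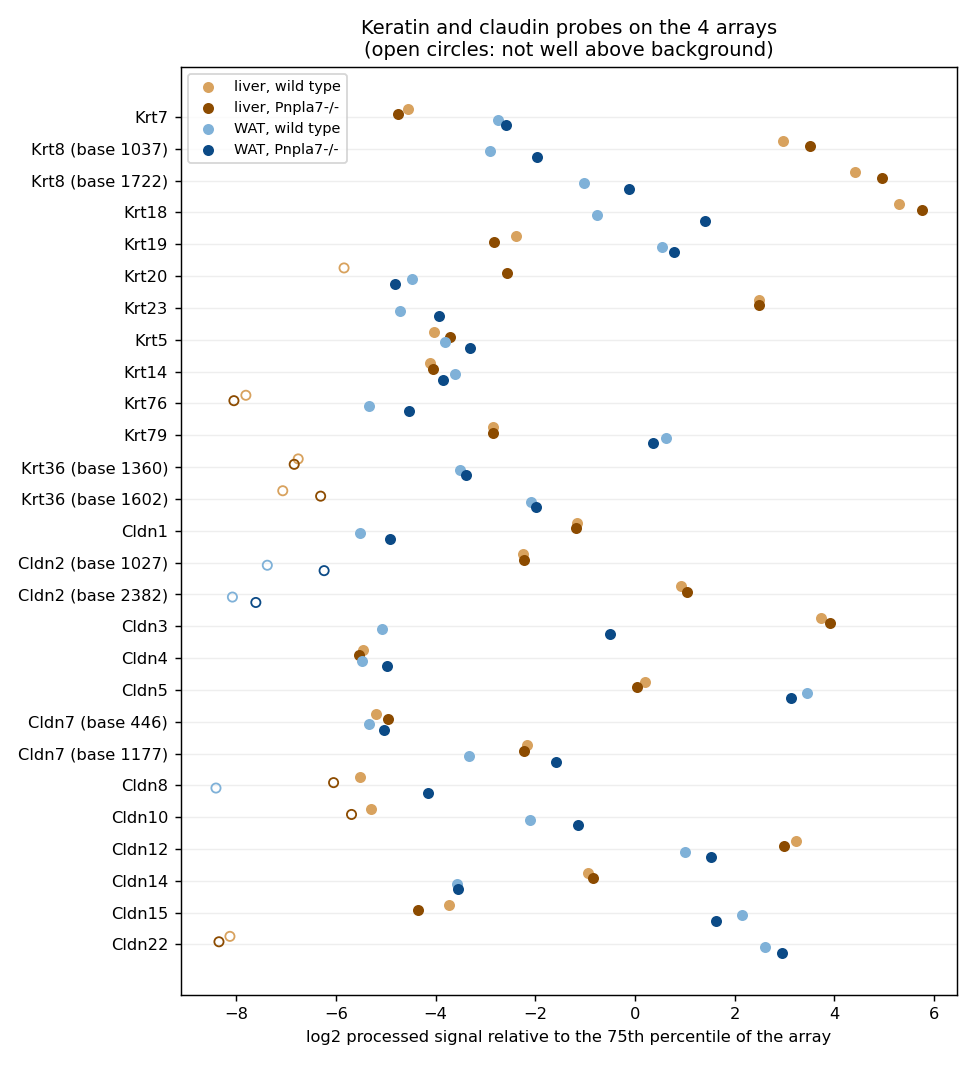
Levels of selected keratin and claudin probes on the 4 arrays; the x axis is the log2 processed signal relative to the array's 75th percentile, each point is 1 spot on 1 array of pooled RNA, and open circles are spots not well above background. Rows compare arrays and not genes. Cldn3 and Krt18 move to the right in labelled-knockout WAT (from -5.08 to -0.50 and from -0.76 to 1.41), and Krt20 does so in labelled-knockout liver.

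The main comparison in WAT was between genotypes. Cldn3, Krt18 and Cldn7 were at least 2-fold higher in the labelled-knockout WAT pool, as were Cldn8 and Krt25 by their bounds. Krt8, the partner of Krt18, and Cldn10 lay just short of 2-fold. None of the measured keratins of basal, stratified and follicular epithelium reached it. In bulk tissue, fewer cells of a type and less RNA per cell cannot be told apart. Of the 40 genes measured in both WAT pools, 3 were at least 2-fold higher in labelled knockout, beside 2.16% of all measured genes, and none was at least 2-fold lower, beside 2.01%. The median log2 ratio of the 40 was 0.20, against 0.02 over all measured genes, and 29 lay above 0 and 11 below. Among 8 genes seen in only 1 WAT pool, 2 had a bound of at least 2-fold higher, beside 11% of all such genes, and none had one of 2-fold lower, beside 6.14%.

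Krt18, the type I keratin of simple epithelium, read -0.76 in wild-type and 1.41 in labelled-knockout WAT. That is a log2 ratio of 2.17 ± 0.20, or 4.50-fold, and it lay between 2.02 and 2.25 under every background correction and scaling tried. Its obligate partner Krt8 was read by a pair of probes that moved alike. The probe at base 1037 read -2.91 and -1.97, and the probe at base 1722 read -1.03 and -0.12. Their mean ratio of 0.92 ± 0.15 was 1.90-fold, just short of the 2-fold limit and less than that of Krt18.

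The other simple keratins differed by less. Krt23 read -4.72 in wild-type and -3.94 in labelled-knockout WAT, a log2 ratio of 0.78 ± 0.24. Krt19, the keratin of ducts and mesothelium, read 0.55 and 0.79 (0.24 ± 0.20), and Krt7, often found with it, read -2.76 and -2.59 (0.17 ± 0.21). Krt20, a keratin of intestinal and urothelial surface cells, read -4.47 and -4.81, a log2 ratio of -0.34 ± 0.28. All 6 simple keratins were measured in WAT, 1 of them at least 2-fold higher, with a median of 0.51.

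Cldn3, a sealing claudin of simple epithelia, had the largest ratio of any keratin or claudin. It read -5.08 in wild-type and -0.50 in labelled-knockout WAT, a log2 ratio of 4.58 ± 0.25, or 23.9-fold. Its wild-type spot was well above background but dim, and with the normexp background correction the ratio was 3.43. Among all 16132 genes measured in WAT, ratios ran from -2.92 to 6.87.

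Cldn7, a sealing claudin of ducts and gut, was 2.04-fold higher as the mean of 2 probes that disagreed. The probe at base 1177 read -3.34 in wild-type and -1.59 in labelled-knockout WAT, a ratio of 1.75. The probe at base 446 read -5.34 and -5.04, a ratio of 0.31. The mean of 1.03 ± 0.19 passed the 2-fold limit narrowly and fell short of it with normexp (0.82) and, narrowly, with the percentile taken over probes above background on all arrays, so that 1 sealing claudin in place of 2 passed, whereas the probe at base 1177 alone gave 1.75.

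Cldn8, a claudin of tight epithelia such as the distal nephron, was not well above background in wild-type WAT (-8.41) and read -4.15 in labelled-knockout WAT. The bound was at least 4.45-fold, a log2 value of 2.15 that fell to 1.07 with normexp. Cldn4, usually found with these claudins, read -5.47 and -4.97 (0.49 ± 0.36) with its probe at base 610. Its other probe, at base 1398, was not well above background on any array. Cldn1 read -5.51 and -4.91 (0.59 ± 0.41), and for both genes the difference was little more than the spot error. The 8 sealing claudins measured in WAT had a median of 0.32, and 2 of them passed 2-fold upwards and none downwards. Cldn9 read -4.02 and -3.86 (0.15 ± 0.23) and Cldn19 read -5.23 and -5.15 (0.08 ± 0.33), both within their spot errors. Cldn11 was seen in wild-type WAT alone, at -5.05, with a bound of at least 1.64-fold lower. The lowest ratio among the 8 was that of Cldn5, which read 3.45 and 3.13 (-0.32 ± 0.20). All 14 endothelial genes lay below 0 in this comparison as well, with a median of -0.40, and their part in the Cldn5 value was not tested.

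Of the channel-forming claudins, Cldn10 read -2.10 and -1.15, a log2 ratio of 0.95 ± 0.21 or 1.93-fold, which just passed 2-fold (1.01) with quantile scaling. Cldn15 read 2.14 and 1.63 (-0.51 ± 0.20), so the 2 measured members of this class differed in sign. Cldn12 read 1.01 and 1.53 (0.52 ± 0.20). Cldn22 read 2.61 and 2.95 (0.34 ± 0.20), while its neighbour Wwc2 read 2.61 and 2.26. Cldn14 was level at -3.57 and -3.56.

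The basal and stratified keratins gave none of 11 measured genes past 2-fold, with a median of 0.21. Krt5 read -3.82 in wild-type and -3.31 in labelled-knockout WAT (0.52 ± 0.23), and its basal-layer partner Krt14 read -3.61 and -3.85 (-0.23 ± 0.23). The pair thus differed in sign. The Krt5 values are from its probe at base 2119, and its other probe, at base 677, was not well above background on any array. The difference for Krt5 was above its spot error and that for Krt14 equal to it, and both stayed within 2-fold. Krt76, a keratin of the oral palate, was the highest of the class, at -5.34 and -4.53 (0.81 ± 0.33). Krt79 read 0.63 and 0.36.

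The hair and root sheath keratins gave none of 7 measured genes past 2-fold and a median of 0.14. Krt25, of the inner root sheath, was not well above background in wild-type WAT (-6.50) and read -5.17 in labelled-knockout WAT. Its bound of at least 2.20-fold, a log2 value of 1.13, dropped below 2-fold with normexp (0.52). Krt36 was measured with 2 of its 3 probes, which gave log2 ratios of 0.12 and 0.10. Krt81 had the lowest ratio of the 40 members measured in both WAT pools, at -4.85 and -5.51 (-0.66 ± 0.35). By filament type, 13 type I keratins were measured, 11 of them above 0 with a median of 0.24, and 12 type II keratins, 6 of them above 0 with a median of 0.04.

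**Figure D2:**
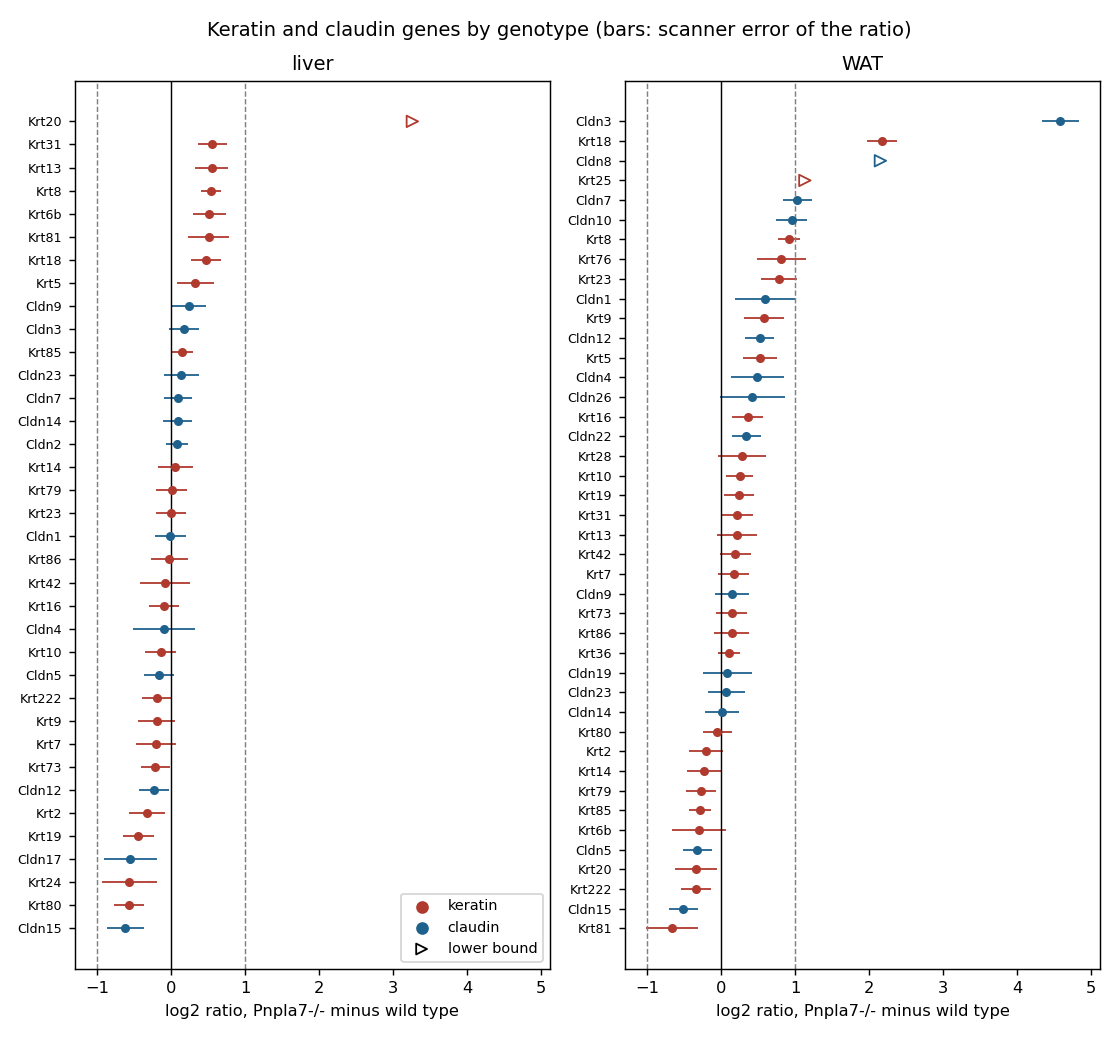
Log2 ratio of labelled knockout to wild type for each keratin (red) and claudin (blue) measured in both pools of liver (left) or WAT (right). Bars are the scanner's error model for the spots used, open triangles are lower bounds of at least 2-fold, and dashed lines mark 2-fold. In liver every measured gene lies between -0.62 and 0.56; in WAT, Cldn3 at 4.58 and Krt18 at 2.17 stand to the right of the rest.

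In liver no keratin or claudin measured in both pools differed 2-fold between genotypes, and Krt20, seen in labelled-knockout liver alone, had a bound past that limit. The hepatocyte pair Krt8 and Krt18 lay slightly above the wild-type level together, and the duct keratins Krt7 and Krt19 slightly below it. None of the 35 measured genes was 2-fold higher, beside 1.75% of all measured genes, and none 2-fold lower, beside 0.886%. Their median log2 ratio was -0.01, against -0.03 over all genes, and their range was -0.62 to 0.56. With normexp their median was -0.42, beside -0.19 over all genes. With it 2 of them passed 2-fold downwards, Cldn17 (-1.02) among them, beside 1.55% of all genes. Among 8 genes seen in only 1 liver pool, 1 had a bound of at least 2-fold higher, beside 9.36% of all such genes, and none had one of 2-fold lower, beside 5.36%.

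Krt20 was not well above background in wild-type liver, at -5.84, and read -2.58 in labelled-knockout liver. The bound was at least 9.58-fold, a log2 value of 3.26, which dropped below 2-fold (0.89) with normexp. Krt20 is a keratin of the surface cells of gut and urothelium and is not a usual hepatocyte gene. Of 18 general epithelial genes measured in liver, 1 was at least 2-fold higher, the transcription factor Grhl1 (-2.10 to -0.73), and 1 lower, Prom1 (-1.51 to -2.64). The keratinocyte envelope gene Sprr1a read -4.28 and -0.40 in the same pools, and the growth factor gene Areg had a bound of 2.84 on the log2 scale. The 7 keratinocyte genes measured in liver, Sprr1a among them, had a median of -0.03, with 2 above 0 and 5 below. Areg is on the mammary list, whose 8 measured genes had a median of -0.20, with 1 above 0 and 7 below. The 14 biliary genes measured had a median of -0.22, and 1 of them, again Prom1, passed 2-fold downwards and none upwards.

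Krt8 in liver read 2.97 in wild type and 3.51 in labelled knockout at base 1037, and 4.41 and 4.95 at base 1722. Both probes of Krt8 therefore gave nearly the same ratio, 0.54 and 0.55, and Krt18 gave 0.47 ± 0.20 (5.29 and 5.76). Both genes stayed within 2-fold. Krt23 was level at 2.49 on both arrays. Krt19 read -2.39 and -2.84 (-0.44 ± 0.21) and Krt7 read -4.56 and -4.76 (-0.20 ± 0.27).

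The liver claudins differed by less than their spot errors in most cases. Cldn3 read 3.74 and 3.92 (0.18 ± 0.20), Cldn1 -1.17 and -1.18, Cldn12 3.22 and 2.99 (-0.23 ± 0.20) and Cldn14 -0.95 and -0.85. The probe of Cldn2 at base 2382 read 0.92 and 1.05. The 7 sealing claudins measured had a median of 0.09 and the 3 channel-forming claudins one of -0.55, set by Cldn15 (-3.74 to -4.36, a ratio of -0.62 ± 0.25) and Cldn17 (-4.78 to -5.32, -0.55 ± 0.36). Cldn7 read -2.16 and -2.22 at base 1177 and -5.19 and -4.96 at base 446, so neither probe differed beyond its spot error. Cldn8 was seen in wild-type liver (-5.52) and not well above background in labelled-knockout liver (-6.05), with a bound of only 1.45-fold. Krt31 and Krt13, of hair and of stratified epithelium, had the highest measured ratios, at 0.56 and 0.55. The other probe of Krt13, at base 885, was not well above background on any array. Krt6b, a keratin of stratified epithelium, had a mean ratio of 0.52 from probes that disagreed: the probe at base 645 read -5.56 and -4.41, a ratio of 1.15 past 2-fold, and the probe at base 2139 read -4.56 and -4.67, a ratio of -0.11.

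Among the 32 genes measured on all 4 arrays, the genotype difference in the gap between WAT and liver was largest for Cldn3. Its log2 WAT minus liver value was -8.82 in wild type and -4.42 in labelled knockout, a difference of 4.40. For Krt18 these values were -6.05 and -4.35, a difference of 1.70, and for Krt8 -5.66 and -5.28, a difference of 0.38. Krt81 moved the other way, from 0.10 to -1.07. Krt20, which was not measured in wild-type liver, moved that way too, from a bound of 1.37 to -2.23. With 1 pool per group these differences were not tested.

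Because liver holds strong signal of Cldn3, Krt18 and Krt8, the WAT signal was also expressed as a percentage of the wild-type liver signal of the same probe, beside the same percentage for hepatocyte genes. Cldn3 in WAT amounted to 0.221% of its liver signal in wild type and 5.29% in labelled knockout. Krt18 went from 1.51% to 6.81%. Krt8 went from 1.70% to 3.25% at base 1037 and from 2.31% to 4.34% at base 1722. The 16 hepatocyte probes above background in both WAT pools ran the other way: their median was 0.570% in wild-type and 0.238% in labelled-knockout WAT, and 14 of the 16 were lower in labelled knockout, the exceptions being the 2 probes of Cyp2e1. Albumin (Alb) stood at 3.15% and 1.05%. Most of the hepatocyte probes read lower in the WAT pool in which Cldn3, Krt18 and Krt8 read higher. The part of liver cells in the WAT signal of these genes was not tested.

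**Figure D3:**
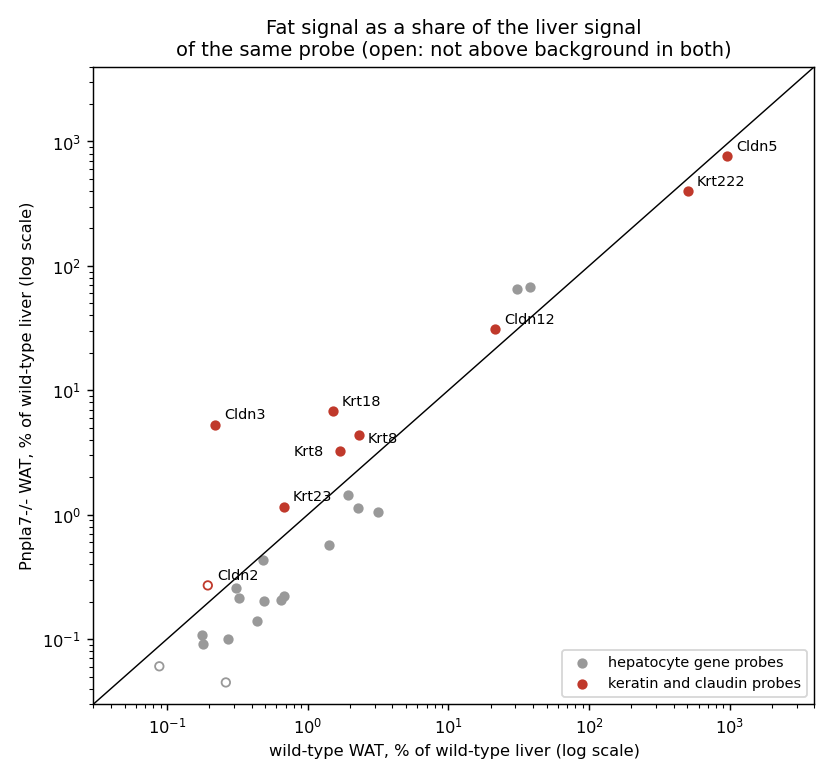
WAT signal as a percentage of the wild-type liver signal of the same probe, in wild-type WAT (x axis) and labelled-knockout WAT (y axis), both log scales; each point is 1 probe, grey for hepatocyte genes and red for keratins and claudins with a wild-type liver level above 0, open where not above background in both WAT pools, and the line marks equality. Cldn3 (0.221% and 5.29%) and Krt18 (1.51% and 6.81%) lie above the line, and 14 of the 16 filled hepatocyte points lie below it.

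Genes that work with keratins and claudins were read from fixed lists. General epithelial genes also read higher in labelled-knockout WAT: the median of the 16 measured was 0.41, with 14 above 0 and 2 below. Of the 16, 6 passed 2-fold upwards and none downwards, beside 2.16% and 2.01% of all measured genes. All 6 were dim in wild-type WAT (-5.58 to -4.59), where the lowest level well above background was -6.31. Ovol2, the brightest of the list there, read 1.49 and 1.31. With normexp the median was 0.30 and 2 of the 6 passed 2-fold, Grhl2 and Spint1. With the brightest probe of each gene the median was 0.29 and 5 passed, without Prss8. The 6 were the transcription factors Grhl2 (-5.52 to -3.33) and Ehf (-5.13 to -3.85), the vesicle protein gene Rab25 (-5.41 to -3.71), the membrane proteases St14 (-4.59 to -3.15) and Prss8 (-4.78 to -3.61), and their inhibitor Spint1 (-5.58 to -3.69). Bounds of at least 2-fold higher were found for Tmprss2 (2.85 on the log2 scale), the adherens junction cadherin Cdh1 (2.77) and Epcam (1.54), among others. Ovol1, Elf3, Elf5, Ap1m2 and Prom2 were not well above background in either WAT pool. GRHL2 is a known activator of junction genes, claudins and Cdh1 among them.

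The 20 tight junction partners measured in WAT had a median of 0.02, and 1 passed 2-fold, the scaffold gene Tjp3 (-4.12 to -1.96). The tricellular junction gene Ildr1 had a bound of 1.89 on the log2 scale. Of 14 desmosome and keratin linker genes, none was 2-fold higher and 1 was lower, the plakophilin Pkp2 (1.03 to -0.78). The keratin anchor desmoplakin (Dsp) was not well above background in wild-type WAT and had a bound of 2.65. In liver, 1 of 21 tight junction partners was 2-fold higher, Marveld3 (-4.38 to -3.21), and 1 of 17 desmosome genes, Pkp1 (-5.19 to -3.24), and with normexp neither was.

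Markers of epithelia that a WAT pool could hold differed unevenly between the pools. Of 9 mammary genes measured, 1 was at least 2-fold higher (Pgr, -5.26 to -4.25, not with normexp) and 1 lower (Oxtr, 1.74 to -0.10). Their median was 0.49 (0.14 with the brightest probe of each gene). The milk protein genes Csn1s1, Csn2 and Wap were not well above background in either pool. Lalba was measured in both (-3.19 and -3.13), as was Ltf (-5.72 and -4.93), and Csn3 was seen in wild-type WAT alone (-5.12). Of 11 biliary genes, 1 was higher (Tspan8, -5.78 to -3.72), with a median of 0.33. Of 4 epididymal and uterine tract genes measured, 2 were higher, Pax8 (-5.60 to -4.42) and Msx1 (-2.71 to -1.43), and with normexp 1 was. The epididymal Crisp1, Lcn5 and Gpx5 were not well above background in either pool, and Adam7 was seen in wild-type WAT alone (-5.71). Of 9 keratinocyte genes measured, 1 was higher (Sprr1a, -5.28 to -3.10) and 1 lower (Dmkn, -0.89 to -2.22). Of the 9, 4 lay above 0 and 5 below, with a median of -0.08. Sbsn (1.97 to 1.28) and Lor (-4.84 to -4.37) were among those within 2-fold. Flg, Ivl and Dsg3 were not well above background in either pool.

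Mesothelial genes lay on the other side: none of 10 measured was 2-fold higher, 1 was lower (mesothelin, Msln, 1.73 to 0.72, not with normexp), and the median was -0.22. Krt19 and Krt7, keratins that mesothelium also makes, lay at 0.24 and 0.17. Adipocyte genes had a median of 0.15, with 1 of 14 at least 2-fold lower, the leptin gene Lep (1.57 to -0.42). The skeletal muscle levels ran from -5.83 to 0.34 in wild-type and from -4.26 to 4.38 in labelled-knockout WAT, and hepatocyte genes were at least 2-fold lower for 7 of 14. The part of these other cell types in the keratin and claudin values was not tested.

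**Figure D4:**
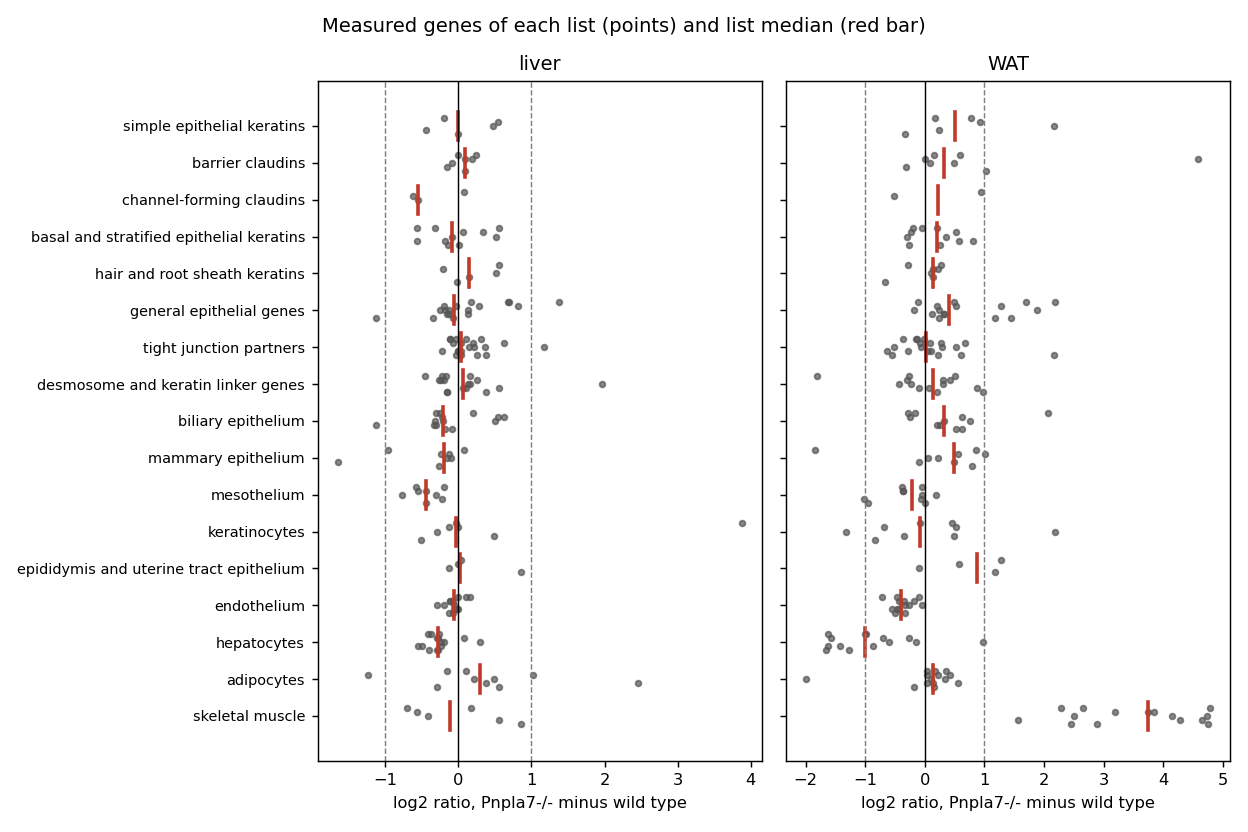
Log2 ratio of labelled knockout to wild type for each measured gene (grey points) of the keratin and claudin classes and of the fixed lists, in liver (left) and WAT (right); red bars are list medians and dashed lines mark 2-fold. In WAT the general epithelial genes reach 2.18, hepatocyte genes have a median of -0.99 and all 15 skeletal muscle genes lie beyond 2-fold.

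The keratin genes lie in clusters, and the claudin genes are more scattered. The keratin probes map to chromosome 11 (27 genes) and chromosome 15 (24 genes), and the claudins are spread over 10 chromosomes. Of 73 members that RefSeq lists, 59 neighbour another keratin or claudin. Krt18 and Krt8 are neighbours on opposite strands of chromosome 15, with WAT ratios of 2.17 and 0.92. Cldn3 neighbours Cldn4 on chromosome 5 on the opposite strand, with ratios of 4.58 and 0.49. In these pairs the neighbours thus differed in size of ratio.

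The windows just upstream of Cldn3, Krt18, Krt8 and Krt20 are shown for the WAT ratios of Cldn3 and Krt18, for Krt8 as the partner and neighbour of Krt18, and for the liver bound of Krt20. Each is the 250 bases before the RefSeq start on GRCm38.p6, in the gene's own 5′ to 3′ direction, with capitals for a GC box (GGGCGG or its reverse complement) or a TATA box (TATAAA).
Cldn3, chr5:134985964-134986213, plus strand: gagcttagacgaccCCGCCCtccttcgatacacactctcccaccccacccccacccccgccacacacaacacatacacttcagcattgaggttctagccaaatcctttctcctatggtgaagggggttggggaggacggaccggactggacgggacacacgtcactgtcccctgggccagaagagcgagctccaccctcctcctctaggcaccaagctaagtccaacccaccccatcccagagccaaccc
Krt18, chr15:102027966-102028215, plus strand: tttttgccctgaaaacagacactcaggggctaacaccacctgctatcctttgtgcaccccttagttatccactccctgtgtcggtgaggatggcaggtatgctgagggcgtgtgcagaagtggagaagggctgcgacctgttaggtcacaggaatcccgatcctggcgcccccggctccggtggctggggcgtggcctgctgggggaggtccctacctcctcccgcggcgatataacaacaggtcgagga
Krt8, chr15:102004343-102004592, minus strand: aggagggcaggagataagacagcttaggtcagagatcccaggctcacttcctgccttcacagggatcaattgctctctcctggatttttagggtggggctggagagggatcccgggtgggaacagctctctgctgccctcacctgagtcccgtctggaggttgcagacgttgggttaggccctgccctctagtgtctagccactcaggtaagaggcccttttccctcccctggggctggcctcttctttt
Krt20, chr11:99438154-99438403, minus strand: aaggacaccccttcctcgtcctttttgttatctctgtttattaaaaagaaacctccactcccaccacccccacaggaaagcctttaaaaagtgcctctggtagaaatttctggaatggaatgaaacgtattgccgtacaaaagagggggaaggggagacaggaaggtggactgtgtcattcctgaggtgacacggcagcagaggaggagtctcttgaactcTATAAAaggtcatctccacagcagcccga

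Of the members, 53 had a promoter entry, with 62 start sites. Both strands were searched for 4 motifs. The TATA box lay in 27.4% of member windows and 12.4% of all 32851 windows, in 16 keratin genes and Cldn2. The GC box lay in 22.6% of member windows and 32.7% of all, and 10 of the 12 member genes with one were claudins. The AP-1 motif TGANTCA lay in 6.45% and 6.75%, and the GRHL motif AACNGGTT in 1.61% (Cldn5 alone) and 1.79%. None of the 4 motifs contains another. A match is a stretch of letters and no measured binding.

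The annotated start sites place the 2 Cldn7 probes differently. RefSeq lists 2 starts for Cldn7, and the probe at base 446, the stretch printed above that begins ttagagccaggc, lies at positions -151 to -92 relative to the downstream one. By these annotated starts it reads only transcripts from the upstream one, whereas the probe at base 1177 lies beyond both. Their WAT ratios were 0.31 and 1.75. Whether the start sites account for this difference was not tested, and the probe at base 446 was dim in both WAT pools (-5.34 and -5.04).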

How the data were processed

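RNA from 4 pools was read on 4 one-colour Agilent arrays. Per the file headers, the deposited intensities came from Agilent Feature Extraction 11.0.1.1, which subtracted background and removed spatial trends from the processed signal but did not normalize between arrays. Per the file headers the same software set the deposited 0 or 1 flags for spots well above background, saturated or outlying. The authors' series table held each intensity divided by the array's 75th percentile (1470, 1764, 1690 and 1613), on a linear scale and with genes not centred (column medians 0.0737, 0.0751, 0.0876 and 0.0875), and its log2 served as an alternative.

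Levels were computed here as log2 processed signal, less the 75th percentile of all non-control spots of that array (Python 3.11.15, pandas 2.3.3). Outlying spots (79 to 110 per array) were left out, and probes of a gene were averaged. A probe counted as measured in a pair if over a 0.5 share of spots passed the background flag on each array. Probe names came from the scanner files for the members, of which RefSeq (GRCm38.p6, names only) now names Cldn26 as Tmem114, Cldn27 as Tmem235 and Krt83 as Krt87. Other genes were named through RefSeq where the accession (27234 probes), symbol (3576) or synonym (565) matched. Repeat spots of a probe gave a median SD of the log2 ratio of 0.04 in liver and 0.05 in WAT, and different probes of a gene a pooled SD of 0.20 and 0.23. With 1 array per group the number of arrays limits the precision, and no test was made. The averaging of probes and the 2-fold call were checked on simulated data with planted shifts larger than 2-fold. The scaling, the background filter and the bounds were not checked in this way.

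The text names each member at least 2-fold apart between genotypes, the simple keratins, the sealing and channel-forming claudins above background on any array, the brightest members of each array, and up to 4 genes of each list by ratio. Members and lists were chosen with earlier results of these data known. Alternatives were normexp (limma 3.58.1, offset 50), quantile scaling, another percentile, the authors' table, no background filter, the brightest probe, outlying spots kept, and limits of 1.5- and 3-fold. Running them on the lists was decided after seeing the data. One gene of the lists is not reported here.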

Additional observations from a re-analysis of the deposited data

Results flagged for a closer look

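Of the members past 2-fold between genotypes in at least 1 tissue, by ratio or bound, 2 had values of opposite sign in liver and WAT. In each case the value in the other tissue was small beside its spot error or near background. Krt20 had a log2 bound of 3.26 (labelled knockout over wild type) in liver and a measured ratio of -0.34 ± 0.28 in WAT. Cldn8 had a log2 bound of -0.53 in liver and of 2.15 in WAT. Its liver spots read -5.52 in wild type and -6.05 in labelled knockout, the second not well above background, with a spot error of 0.44. The difference between tissues was not tested for either gene, since each value rests on 1 pool per group. Other members, within 2-fold in both tissues, also differed in sign, such as Krt81 (0.51 in liver and -0.66 in WAT) and Krt19 (-0.44 and 0.24).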

How the results depend on the processing

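No named keratin or claudin past 2-fold in the main run changed sign under any alternative run, and only such values were checked for a change of sign. Of 138 single-gene values in liver and 139 in WAT, 10 and 11 moved by more than the pooled SD between probes (0.20 and 0.23). Some of these runs could move few values, so the counts overstate stability. The authors' table used the same scaling percentile, and 59 of the 76 members had 1 probe. For those, taking the brightest probe or dropping the background filter leaves a measured ratio unchanged. With normexp the liver median went from -0.01 to -0.42, beside -0.19 for all genes (from -0.03). With it 2 of 35 liver members passed 2-fold downwards, beside 1.55% of all genes. It split all liver genes into 103 higher and 242 lower, in place of 273 and 138. Liver bounds of 2-fold became 0 higher and 2 lower, and WAT bounds 1 higher. The general epithelial genes past 2-fold in WAT went from 6 to 2 with it and to 12 without the background filter (lists rerun after seeing the data). Without the background filter, members passing 2-fold became 2 higher and 1 lower in liver, 7 higher and 1 lower in WAT, and 19 higher in WAT than in liver in each genotype. A 1.5-fold limit gave 1 of 35 members lower in liver, beside 3.72% of all genes. In WAT it gave 8 of 40 higher and 1 lower, beside 6.19% and 7.57%, and 1 lower bound. A 3-fold limit left 1 WAT bound higher and 7 members lower in wild-type WAT than in liver. For the bounds and the WAT against liver counts of these runs, shares over all genes were not computed. The cause of the other shifts was not tested; more genes enter without the filter and at a lower limit by construction. Bounds do not exist without the filter, and detection counts were recomputed only for the brightest probe and with outlying spots kept. No paired analysis was possible because each group has 1 array. Genes near background, such as Krt25, Cldn8 and the Cldn7 probe at base 446, were limited by signal over background.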

Other observations

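RefSeq gives keratin or claudin names to 5 further probes that the scanner files list under other names: Cldn34a, Cldn34d, Krt72, Krt88 and Krt90. Krt72, of the inner root sheath, was the one seen on all 4 arrays, at -5.65 and -5.36 in wild-type and labelled-knockout liver and -5.24 and -5.36 in WAT. Krt88 read -6.43 and -5.68 in liver, the first not well above background, and -5.18 and -5.21 in WAT. Cldn34d and Krt90 were not well above background on any array, and Cldn34a was seen in wild-type WAT alone (-5.75).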
